A study of Mus musculus with 2 samples.

Results

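The neurotrophin and GDNF family ligands described here are 6 secreted growth factor genes, Bdnf, Ntf3, Ntf5, Gdnf, Artn and Nrtn, chosen by their gene symbols out of 31053 genes in the count matrices. They were followed in cultured mouse dorsal root ganglia (DRGs), the ganglia that hold the cell bodies of sensory neurons. All 6 had a row in both matrices, and together they held 3894 UMIs (unique molecular identifiers, so that copies of 1 captured transcript count once) in library A and 3328 in library B. The question was which cell class supplied each ligand.

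The cells came from DRGs of 2-week-old Swiss mice of both sexes, dissociated with collagenase and dispase and kept for 3 days on laminin in medium with horse serum, and no growth factor is listed for that medium. No nerve lesion preceded the culture, and no other condition was analysed here. Libraries A and B are replicates of this 1 condition on a single 10X chip, and the labels do not say whether they came from separate cultures, so that p-values measure only the spread between these libraries. Barcodes under 200 genes or over 10% mitochondrial UMIs were dropped, which left 5066 of 5175 cells in A and 5664 of 5773 in B with 39569977 and 38295573 UMIs, and 7 kept barcodes occurred in both libraries.

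Neurotrophins signal through the Trk receptor tyrosine kinases and the shared receptor p75, and are known for keeping subsets of sensory neurons alive and for shaping their sensitivity to pain. BDNF and neurotrophin-4 (the product of Ntf5) bind TrkB, and neurotrophin-3 prefers TrkC. Ligands of the GDNF family bind a GFRalpha co-receptor, which then engages the kinase Ret: GDNF prefers GFRalpha1, neurturin (Nrtn) GFRalpha2 and artemin (Artn) GFRalpha3. In the nerve, Schwann cells that have lost axon contact turn to a repair state and make trophic factors for regrowing axons.

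Clusters of all cells were named from marker genes as glia-like, neuron-like, fibroblast-like and macrophage-like, and are called glia, neurons, fibroblasts and macrophages for short. Glia comprised 9442 cells with a median of 4723 UMIs, neurons 812 cells with 28304, fibroblasts 393 cells with 11500 and macrophages 83 cells with 9203. All 8 glial, 10 neuronal, 8 fibroblast and 8 macrophage markers were highest in the class they name by the mean of A and B. The glial marker S100b was about as high in neurons, at 100.1% of its glial CPM in A and 90.9% in B. Of 8 endothelial markers 6 were highest in fibroblasts, as were 7 of 8 pericyte and smooth muscle markers, and neither type formed a cluster of its own. Glia held 66.4% of all UMIs and neurons 26.6%, and this sets the scale for the shares of ligand UMIs.

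The sequences upstream of the ligand genes are shown first, because the ligands separated by cell class. Each is the 250 bases before a RefSeq transcription start on GRCm38.p6, written 5′ to 3′ on the strand of the gene, for the 3 ligands found mainly in glia and for 1 of 7 annotated Bdnf starts. Capitals mark matches on either strand to ACAAAG (a core of Sox factor sites), TGANTCA (AP-1) or TGACGT (the core of the cyclic AMP response element).
Gdnf, chr15:7809798-7810047, plus strand: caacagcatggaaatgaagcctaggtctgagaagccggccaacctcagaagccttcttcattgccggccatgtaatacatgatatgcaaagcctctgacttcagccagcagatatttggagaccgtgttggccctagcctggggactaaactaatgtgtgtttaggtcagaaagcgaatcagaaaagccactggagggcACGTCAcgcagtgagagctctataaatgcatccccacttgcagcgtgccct
Artn, chr4:117929764-117930013, minus strand: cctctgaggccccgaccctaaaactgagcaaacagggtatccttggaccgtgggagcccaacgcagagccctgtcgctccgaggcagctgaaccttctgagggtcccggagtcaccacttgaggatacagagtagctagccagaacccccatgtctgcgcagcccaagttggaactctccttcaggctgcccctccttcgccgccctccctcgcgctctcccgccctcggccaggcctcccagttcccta
Nrtn, chr17:56757549-56757798, minus strand: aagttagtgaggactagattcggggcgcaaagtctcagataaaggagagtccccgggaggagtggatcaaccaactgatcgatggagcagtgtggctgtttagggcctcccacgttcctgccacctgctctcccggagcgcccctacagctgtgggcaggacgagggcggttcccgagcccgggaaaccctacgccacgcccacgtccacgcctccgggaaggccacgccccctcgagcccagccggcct
Bdnf, chr2:109692186-109692435, plus strand: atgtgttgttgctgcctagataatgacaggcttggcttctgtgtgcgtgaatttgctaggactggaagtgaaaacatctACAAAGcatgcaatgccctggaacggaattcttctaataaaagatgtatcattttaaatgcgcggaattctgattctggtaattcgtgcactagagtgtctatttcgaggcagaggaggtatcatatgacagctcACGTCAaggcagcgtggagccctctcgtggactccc
The Gdnf window held a TGACGT match that began 51 bases before the start, and the Bdnf window held a TGACGT match at 36 bases and an ACAAAG match at 171 bases before it. Neither the Artn nor the Nrtn window held any of the 3 motifs. The Bdnf window was chosen from the 7 because it held matches, and of the other 6, only 1 held any (TGANTCA, 152 bases before its start), and the second Gdnf window held none. Among 32851 windows of the same length, 16.5% held ACAAAG, 6.75% TGANTCA and 6.47% TGACGT. A match is a run of letters and not a binding site. The kit reads the 3′ end of transcripts, so the counts do not tell which start was used. None of the printed windows overlapped an annotated exon of its gene, and no other gene in the matrices overlapped a ligand gene on the same strand. Gm45346 overlaps Bdnf on the opposite strand.

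Bdnf (ENSMUSG00000048482, chr2:109674700-109727007 on GRCm38, plus strand) was supplied by the neurons. Neurons held 3070 of its 3265 UMIs, or 94.0% (exact 95% binomial interval 93.2 to 94.8, counting error only), although they were 7.57% of the cells. Bdnf stood at 156.3 CPM (counts per 1e6 UMIs of the class) in A and 137.9 CPM in B in neurons, against 17.9 and 20.02 CPM in fibroblasts, 1.93 and 2.17 CPM in glia and 0 and 4.17 CPM in macrophages, the value in B resting on 2 UMIs. The neuronal values did not overlap those of any other class. In the edgeR quasi-likelihood test on summed counts, neurons exceeded glia by 6.19 (log2, SE 0.10, adjusted p = 7.55e-35), where 40.9% of all genes were called higher, and fibroblasts by 2.74 (SE 0.14, adjusted p = 1.14e-19), where 36.8% were.

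At the level of cells, 66.4% of neurons in A and 60.2% in B had at least 1 Bdnf UMI. After each cell was thinned to 2000 UMIs, to remove the difference in depth, 19.95% and 22.4% of neurons had one, against 4.09% and 4.17% of fibroblasts, 0.344% and 0.511% of glia and 0 of 83 macrophages, which allows a share of up to 3.61%. The neuron with the most Bdnf carried 38 UMIs, and 403 of the 516 Bdnf-positive neurons had 2 or more. None of the 106 glial cells with a Bdnf UMI had more than 1.

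Levels outside the main class were set beside those of marker genes of the main class. Bdnf in glia was 1.40% of its neuronal CPM, within the 0.61% to 4.22% that the 10 neuronal markers gave in glia (median 1.63%). Whether this glial signal came from glia was not tested. Bdnf in fibroblasts was 11.5% of the neuronal CPM in A and 14.5% in B, whereas the neuronal markers in fibroblasts ranged over 0.24% to 4.23% with a median of 0.94%. Fibroblasts exceeded glia in Bdnf by 3.45 (log2, SE 0.26, adjusted p = 2.26e-14), where 25.3% of genes were called higher. The 60 fibroblasts with a Bdnf UMI had summed neuronal marker levels of 106 CPM in A and 450 CPM in B, against 184 and 132 CPM in fibroblasts without one, so that the direction differed between the libraries.

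**Figure D1:**
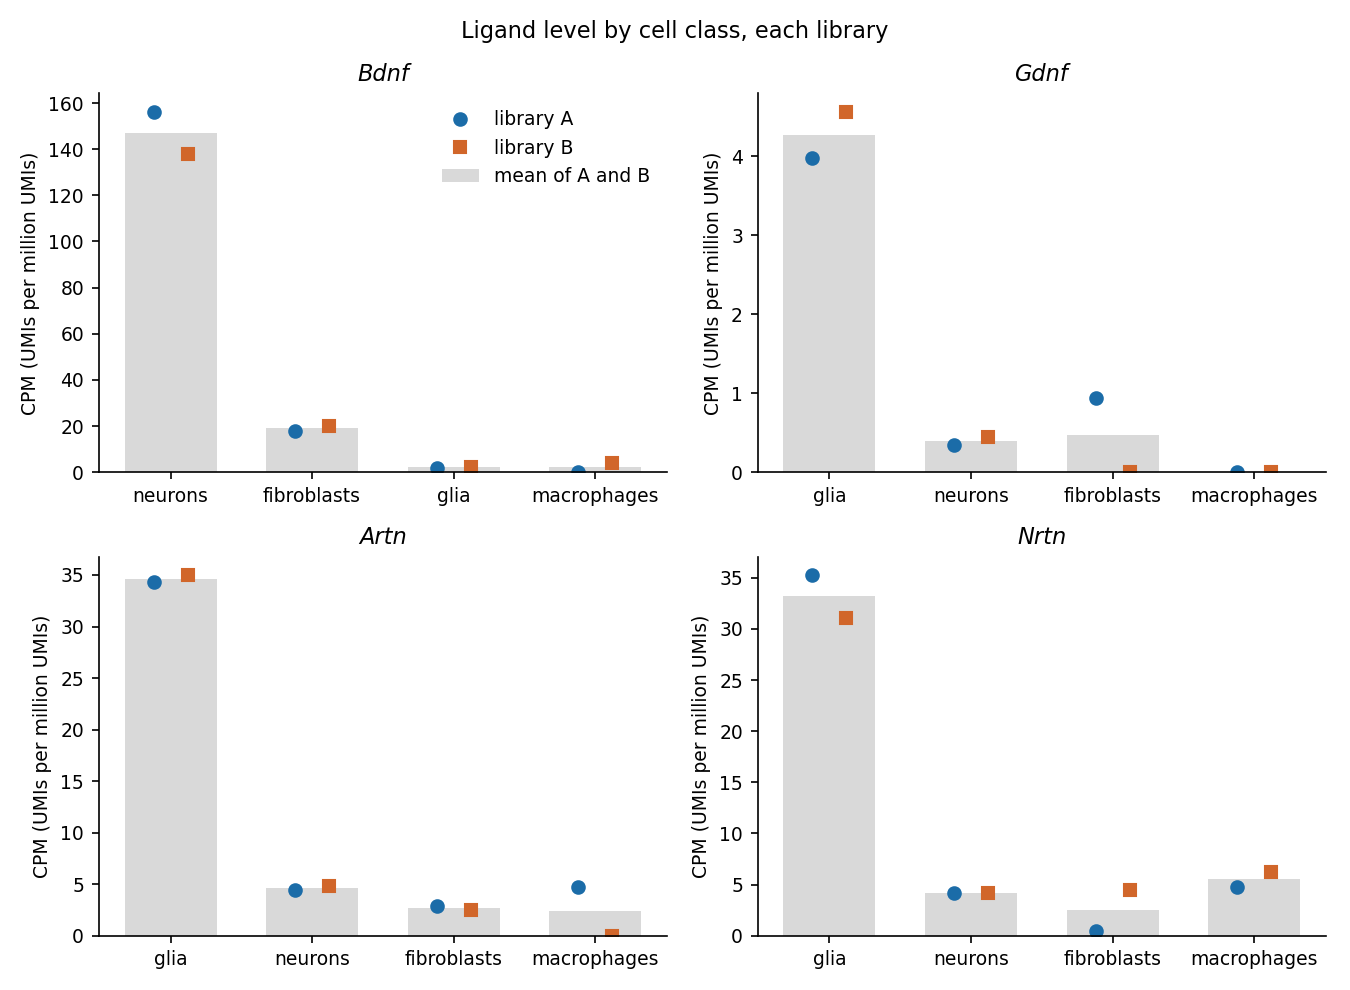
Level of Bdnf, Gdnf, Artn and Nrtn in each cell class, in CPM of counts summed over the cells of a class (y axes start at 0 and differ between panels). Circles are library A, squares are library B and bars are their mean; Bdnf is highest in neurons (156.3 and 137.9 CPM) and the other 3 ligands are highest in glia.

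Ntf3 (ENSMUSG00000049107) and Ntf5 (ENSMUSG00000074121) were barely detected in any class. Ntf3, which encodes neurotrophin-3, had 2 UMIs in A and 4 in B, in 5 cells: 4 UMIs in glia, 1 in neurons and 1 in fibroblasts. Ntf5 had a single UMI, in a glial cell of A. Both lay at or near the limit that a count of 0 allows (3 counts, 0.0758 CPM in A and 0.0783 CPM in B), did not pass the filter on low counts and were not tested. No supplying class could be told at this depth, which is different from absence.

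Gdnf (ENSMUSG00000022144, chr15:7810846-7837575, plus strand) was a glial transcript of low level. Glia held 221 of its 231 UMIs, or 95.7% (92.2 to 97.9). The level was 3.98 CPM in A and 4.56 CPM in B in glia, against 0.344 and 0.441 CPM in neurons, 0.943 and 0 CPM in fibroblasts and 0 CPM in macrophages of both libraries. Glia exceeded neurons by 3.38 (log2, SE 0.41, adjusted p = 2.66e-09), where 43% of genes were called higher. They exceeded fibroblasts by 3.02 (SE 0.78, adjusted p = 0.00117), where 30.7% were, on only 2 fibroblast UMIs, and the difference was 1.76 in A alone and 4.49 in B alone. A difference from macrophages was not detectable, since 3 counts there would be 7.13 CPM in A and 6.25 CPM in B, above the glial level. After thinning, 0.779% of glia in A and 0.919% in B had a Gdnf UMI, against 0 of 769 neurons, which allows a share of up to 0.390%.

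Artn (ENSMUSG00000028539, chr4:117926162-117929763, minus strand) was likewise glial, and reached more cells. Its 1901 UMIs included 1791 in glia, or 94.2% (93.1 to 95.2). Artn stood at 34.3 and 35.0 CPM in glia of A and B, against 4.47 and 4.85 CPM in neurons, 2.83 and 2.45 CPM in fibroblasts and 4.75 and 0 CPM in macrophages. Glia lay above every other class in both libraries, while the other classes overlapped, and the macrophage values rest on 2 UMIs in A and 0 in B. Glia exceeded neurons by 2.86 (log2, SE 0.13, adjusted p = 2.08e-21) and fibroblasts by 3.47 (SE 0.28, adjusted p = 2.00e-13). An Artn UMI was found in 7.10% and 6.96% of thinned glia, against 0.962% and 1.70% of thinned neurons and 0% and 0.463% of thinned fibroblasts.

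Nrtn (ENSMUSG00000039481, chr17:56751325-56757530, minus strand) followed the same division. Of 1818 UMIs, 1714 were in glia, or 94.3% (93.1 to 95.3). Nrtn stood at 35.3 and 31.1 CPM in glia, against 4.21 and 4.19 CPM in neurons, 0.472 and 4.49 CPM in fibroblasts and 4.75 and 6.25 CPM in macrophages, the last on 5 UMIs. The fibroblast values rest on 1 UMI in A and 11 in B, and both stayed below the glia. Glia exceeded neurons by 2.95 (log2, SE 0.15, adjusted p = 2.90e-20) and fibroblasts by 3.41 (SE 0.31, adjusted p = 4.18e-12), the second being 5.64 in A alone and 2.73 in B alone. Thinned glia had a Nrtn UMI in 6.39% and 5.86% of cells, against 1.68% and 1.98% of neurons.

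The neuronal levels of the glial ligands were within the range of glial markers found in neurons. Gdnf, Artn and Nrtn in neurons were 9.15%, 13.4% and 12.7% of their glial CPM, and the 8 glial markers gave 5.54% to 95.5% with a median of 11.4%, the upper end being S100b. Neurons with an Artn UMI had summed glial marker levels of 1038 CPM in A and 1143 CPM in B, against 501 and 481 CPM in neurons without one. For Nrtn these levels were 849 and 906 CPM with a UMI, against 525 and 521 CPM without. The neuronal signal of Artn and Nrtn moved with glial transcripts in both libraries, and their part in it was not tested. In fibroblasts the 9 Artn-positive cells showed the same, with 1252 and 1205 CPM of glial markers against 125 and 206 CPM in the other fibroblasts. Gdnf, Artn and Nrtn in fibroblasts were 11.9%, 7.63% and 7.89% of their glial CPM. The glial markers gave 2.88% to 28.1% there, with a median of 3.91%. For Gdnf the percentages were 23.7% in A and 0% in B, on 2 fibroblast UMIs. For Nrtn they were 1.34% and 14.4%, on 12 fibroblast UMIs.

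**Figure D2:**
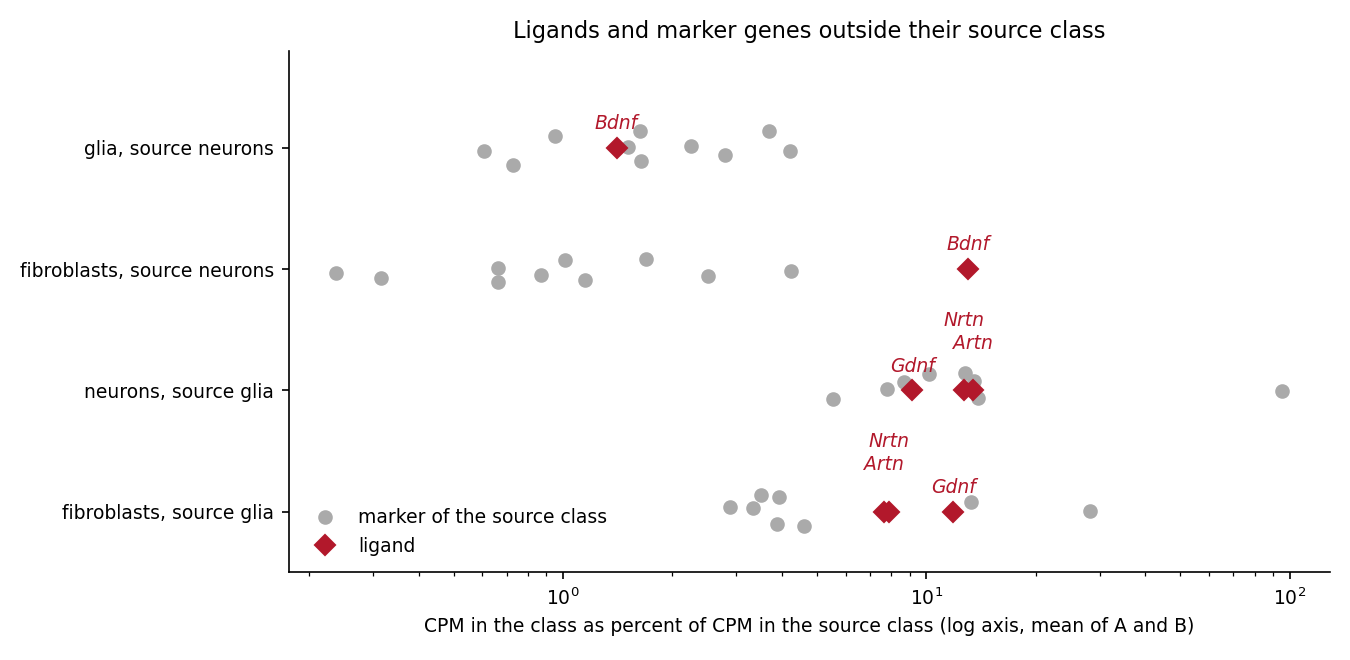
Level of each ligand (red diamonds) and of each marker of the source class (grey circles) in another class, as percent of its CPM in the source class, mean of A and B, on a log axis. Bdnf in glia lies among the neuronal markers (1.40%, median of the markers 1.63%), Bdnf in fibroblasts lies above all of them, and Gdnf, Artn and Nrtn in neurons lie among the glial markers.

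Of the 6 ligands, 4 passed the filter on low counts. Against the mean of the other classes, 3 of these 4 were called higher in glia (Gdnf, Artn and Nrtn) and 1 lower (Bdnf), where 36.7% of 13793 genes were called higher and 20.5% lower. In neurons 1 was called higher (Bdnf) and 1 lower (Nrtn), against 38.9% and 31% of all genes. In fibroblasts 1 was called higher (Bdnf) and 1 lower (Nrtn), against 24.4% and 19.1%, and in macrophages 0 and 1 (Bdnf), against 10.9% and 13.6%. The median over the 4 ligands was 3.15 in glia, against 0.17 over all genes tested. The Gdnf value in this contrast depends on macrophages, where it had no UMI, and its pairwise values above do not.

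**Figure D3:**
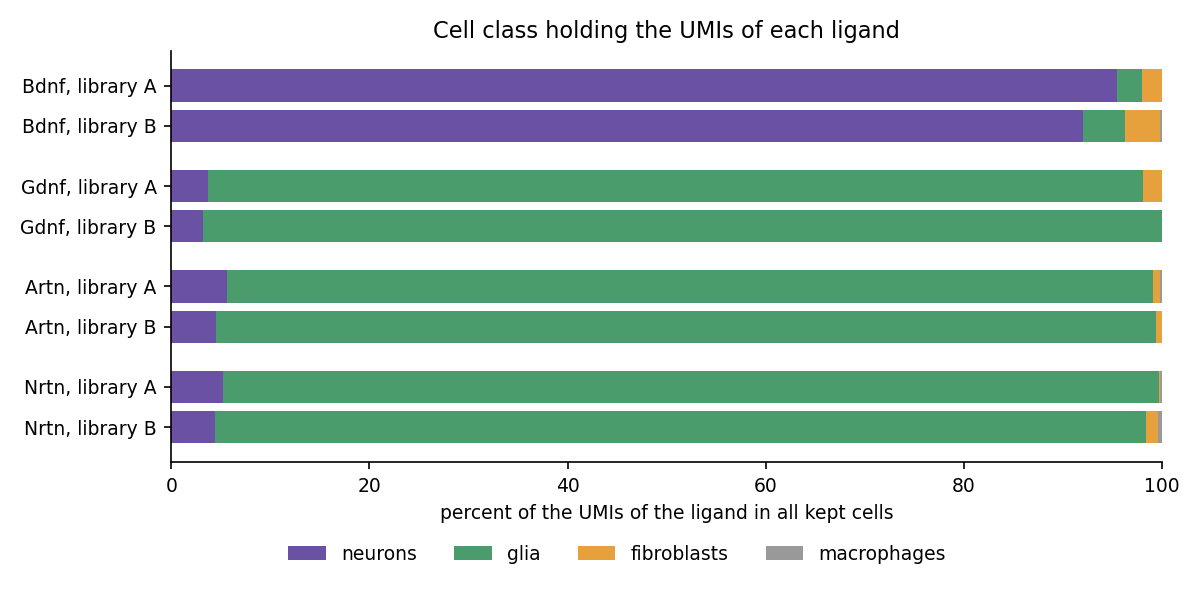
Share of the UMIs of Bdnf, Gdnf, Artn and Nrtn that came from each cell class, one bar per ligand and library, on a linear axis from 0 to 100%. Neurons hold 95.4% and 92.1% of Bdnf, and glia hold between 93.6% and 96.8% of each of the other 3 ligands.

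Glia were then clustered again without the ligands and their pathway among the variable genes, which gave 5 clusters. Cluster g1 (1884 cells, led by Igfbp5, Tgfbi and Atf3) was highest in the 4 repair Schwann markers Btc, Runx2, Shh and Olig1, with 216 and 187 summed CPM in A and B. Cluster g3 (1195 cells) came second with 100.3 and 108 CPM. It was also high in proliferation genes and had the histone gene Hist1h1b among its 10 leading genes. Clusters g0 (3683 cells), g2 (1572 cells, led by the histone genes Hist1h2ap and Hist1h1b) and g4 (1108 cells, led by Pttg1, Ccnb1 and Cdc20) stood between 17.2 and 34.8 CPM of repair markers. They were higher than g1 and g3 in the sum of 6 satellite glial markers, most of which was Apoe. Of these markers, Ednrb went the other way in g0 (243 and 223 CPM) and g2 (227 and 219 CPM). It was 314 and 333 CPM in g1 and 286 and 307 CPM in g3.

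Gdnf was concentrated in g1 and g3, the clusters with the highest sums of repair markers. It stood at 12.1 and 14.4 CPM in g1 and at 7.51 and 8.65 CPM in g3, against 2.55 and 1.17 CPM in g0, 0.467 and 1.72 CPM in g2 and 1.75 and 1.13 CPM in g4. Clusters g1 and g3 held 167 of 221 glial Gdnf UMIs, or 75.6% (69.4 to 81.1), with 32.6% of the glia. No library of g1 or g3 overlapped one of the other 3 clusters. In the edgeR test g1 exceeded the mean of the others by 2.60 (log2, SE 0.24, adjusted p = 2.76e-15), where 22.4% of 11697 genes were called higher, and g3 by 1.75 (SE 0.27, adjusted p = 9.16e-08), where 25.4% were. Gdnf fell below the mean of the others by 1.96 in g2 (SE 0.39, adjusted p = 1.46e-05), where 23.9% of genes were called lower, and by 3.09 in A alone and 1.06 in B alone. Its lower calls in g0 and g4, where 24.2% and 19.3% were, were lost with DESeq2 (adjusted p = 0.0727 and 0.0506). Without thinning, 4.47% and 5.30% of g1 cells and 4.78% and 4.61% of g3 cells had a Gdnf UMI, against 2.12% of all glia. These unthinned shares follow depth, and the median was 3801.5 UMIs per cell in g1 and 6462 in g3.

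Artn, by contrast, varied little between glial clusters. It was 39.5 and 38.6 CPM in g0, 36.7 and 40.2 CPM in g1, 33.0 and 35.4 CPM in g4, 31.0 and 31.4 CPM in g2 and 27.7 and 27.4 CPM in g3. The values of g0 and g1 overlapped, and g3 was lowest in both libraries. The difference of g1 from the mean of the others was 0.25 (log2, SE 0.09, adjusted p = 0.0207) and that of g3 was -0.31 (SE 0.10, adjusted p = 0.00692), where 18.7% of genes were called lower, and DESeq2 kept neither call (adjusted p = 0.125 and 0.0945). Clusters g1 and g3 held 28.8% of glial Artn UMIs (26.7 to 31.0), close to their 32.6% of the cells.

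Nrtn was highest in g3 and g2, 2 of the 3 clusters with high proliferation genes. It stood at 49.2 and 44.2 CPM in g3 and 42.5 and 36.4 CPM in g2, against 29.7 and 32.1 CPM in g1, 27.7 and 24.1 CPM in g0 and 29.8 and 22.4 CPM in g4. Cluster g3 exceeded the mean of the others by 0.69 (log2, SE 0.09, adjusted p = 8.11e-10), and g2 did so by 0.30 (SE 0.08, adjusted p = 0.00121), where 28.6% of genes were called higher, a call that DESeq2 did not make (adjusted p = 0.0767). Nrtn fell by 0.46 in g0 (SE 0.08, adjusted p = 1.41e-06) and by 0.44 in g4 (SE 0.11, adjusted p = 0.000611), the second being -0.28 in A alone and -0.57 in B alone. The summed proliferation markers were 3589 and 3689 CPM in g3, 4122 and 4186 CPM in g2 and 3284 and 3263 CPM in g4, against 212 CPM in both libraries of g0 and 92.96 and 108 CPM in g1, and their part in the Nrtn pattern was not tested. In g1 Nrtn differed from the mean of the others by -0.08 (SE 0.10, adjusted p = 0.531).

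**Figure D4:**
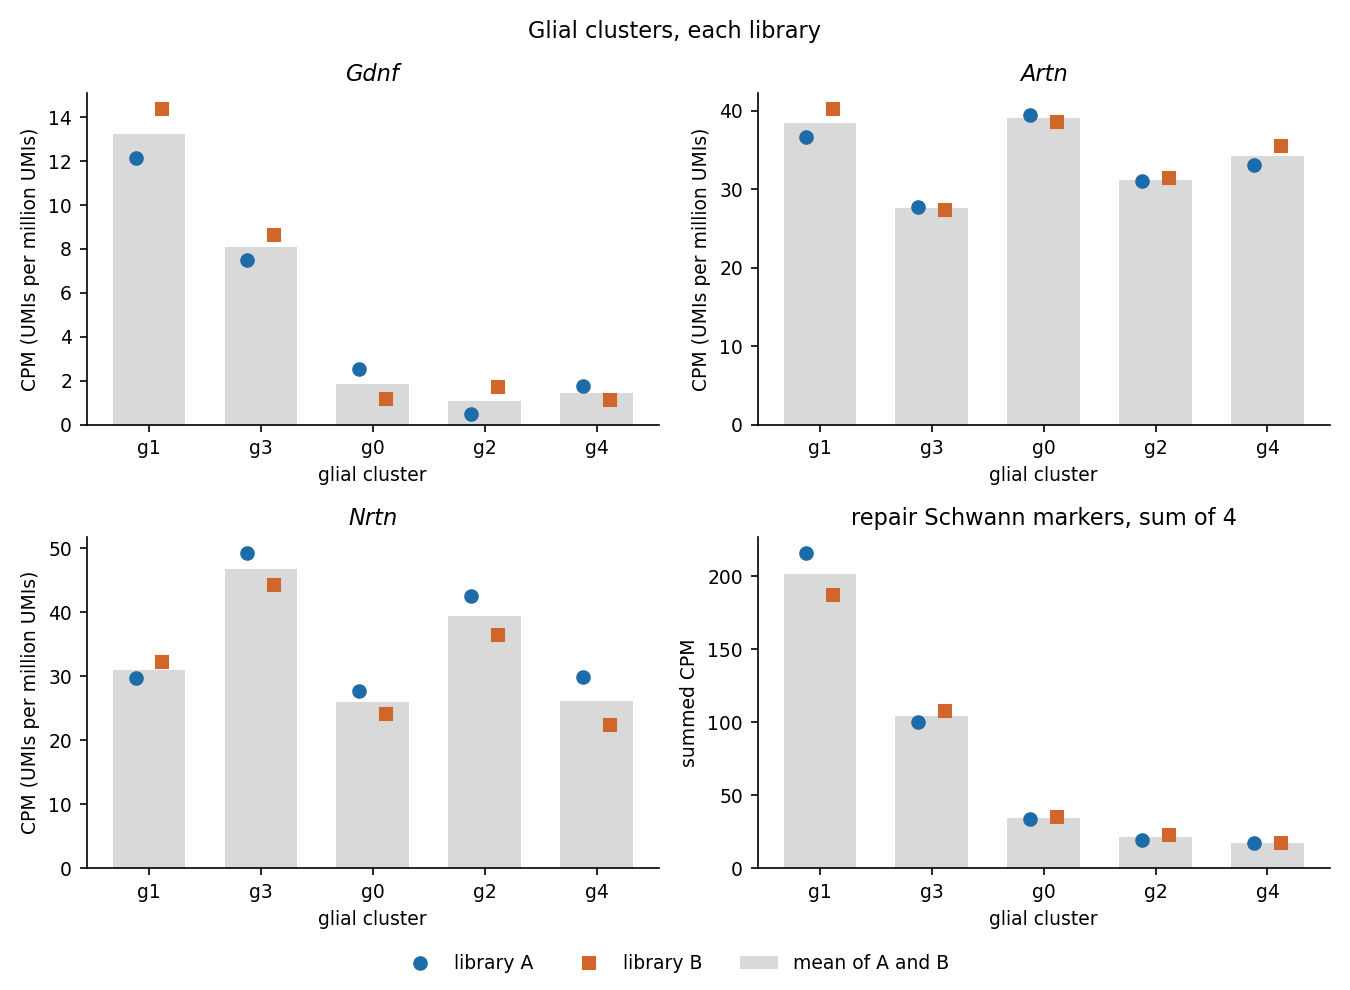
Levels of Gdnf, Artn and Nrtn in the 5 glial clusters, in CPM, and the summed CPM of 4 repair Schwann markers (axes start at 0 and differ between panels). Circles are library A, squares are library B and bars are their mean; Gdnf is highest in g1 (12.1 and 14.4 CPM) and g3 (7.51 and 8.65 CPM), like the repair markers, while Artn lies between 27.4 and 40.2 CPM in all 5.

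The few Bdnf UMIs in glia, 106 in all, were also uneven, with 2.67 and 3.04 CPM in g0 and 3.18 and 3.65 CPM in g1 against 0.467 and 1.20 CPM in g2. In g3 it was 2.59 and 0.701 CPM and in g4 0.877 and 1.70 CPM. The summed neuronal markers were 356 and 276 CPM in g0, 437 and 354 CPM in g1, 271 and 218 CPM in g2, 291 and 239 CPM in g3 and 234 and 225 CPM in g4. They were highest in g1 and then g0, as was Bdnf by its mean. The markers were lowest in g4 in A and in g2 in B, and Bdnf was lowest in g2 in A and in g3 in B. The part of the markers in the Bdnf values was not tested. These calls, 0.84 higher in g0 and 1.21 in g1 and 1.37 lower in g2 on the log2 scale by edgeR (28.9% of genes were called higher in g0), were not made by DESeq2 (adjusted p between 0.0990 and 0.303).

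In single glial cells the 3 glial ligands were mostly found apart. At least 1 of Gdnf, Artn and Nrtn was detected in 2802 of 9442 glia (29.7%), at least 2 in 305 (3.23%) and all 3 in 9. Among 9262 glia thinned to equal depth, 36 held both Artn and Nrtn, and the product of the separate shares would give 39.8. Gdnf was found with Artn in 8 cells and with Nrtn in 8 cells, where the products would give 5.55 and 4.83. At 2000 UMIs per cell most transcripts of these genes go unseen, so cells without a UMI may still express them.

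Among neurons, Bdnf differed strongly between clusters. Neurons clustered again gave 10 clusters, n0 to n9. In order of mean level, Bdnf stood at 307 and 405 CPM in n5, 320 and 238 CPM in n1, 249 and 236 CPM in n3 and 156 and 135 CPM in n8. Clusters n7 (61.7 and 101.7 CPM) and n4 (70.6 and 89.8 CPM) followed, and then n6 (49.8 and 25.7 CPM), n0 (39.8 and 34.0 CPM), n2 (35.8 and 29.5 CPM) and n9 (0 and 40.3 CPM). Values of n5, n1 and n3 overlapped with those of their neighbour in this order, n8 lay apart from n3 above it and n7 below it, n7 overlapped with n4, and n6, n0, n2 and n9 overlapped.

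Clusters n5 (72 cells) and n1 (141 cells) also had the highest mean sums of the peptidergic markers Calca, Tac1 and Adcyap1, which encode neuropeptides of pain-sensing neurons. The sums were 9453 and 9981 CPM in n5 and 10359 and 9032 CPM in n1. Cluster n4 reached 4323 and 9795 CPM of these markers. Cluster n3 (80 cells) was led by Mrgpra3, a receptor gene of itch-sensing neurons, and had 3569 and 3500 CPM of peptidergic markers. Almost all of this was Calca, at 3434 and 3441 CPM. Cluster n8 (34 cells) carried Lpar3 and Mrgprd of non-peptidergic neurons and had 1086 and 1008 CPM of peptidergic markers. The clusters n1, n3 and n5 together held 2435 of 3070 neuronal Bdnf UMIs, or 79.3% (77.8 to 80.7), with 36.1% of the neurons.

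Bdnf exceeded the mean of the other neuron clusters by 2.22 in n5 (log2, SE 0.12, adjusted p = 5.92e-27), by 1.88 in n1 (SE 0.11, adjusted p = 4.63e-25) and by 1.72 in n3 (SE 0.12, adjusted p = 9.46e-21), where 17%, 24% and 25.5% of 10524 genes were called higher by edgeR. The call in n8 (0.88, SE 0.18, adjusted p = 5.85e-05, where 14% were) was lost when n4, n6 and n9 were left out (adjusted p = 0.0770). It fell by 1.33 in n0 (SE 0.22, adjusted p = 9.60e-07, where 4.79% of genes were called lower), by 1.51 in n2 (SE 0.25, adjusted p = 5.84e-07, 7.41%) by 1.24 in n6 (SE 0.25, adjusted p = 5.71e-05, 5.09%) and by 2.17 in n9 (SE 0.63, adjusted p = 0.00674, 11.7%). In A alone and B alone the difference was -0.73 and -1.97 in n6, and -3.77 and -1.11 in n9. Clusters n0 and n2 had high sums over the injury genes Atf3, Gal, Nts, Sprr1a, Sox11 and Npy. The sums were 10891 and 9733 CPM in n0 and 19340 and 19140 CPM in n2, against 2596 and 3066 CPM in n1 and 643 and 651 CPM in n3. Gal did not follow the sum, at 1960 and 1029 CPM in n0 against 2213 and 2588 CPM in n1. Cluster n5, with the highest mean Bdnf, had 7594 and 9887 CPM of the same genes, of which Gal alone made 7033 and 8540 CPM. Each of the other genes was lower in n5 than in n0 and n2 in both libraries. Atf3, for example, was 65.3 and 42.6 CPM in n5 against 707 and 630 CPM in n0.

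**Figure D5:**
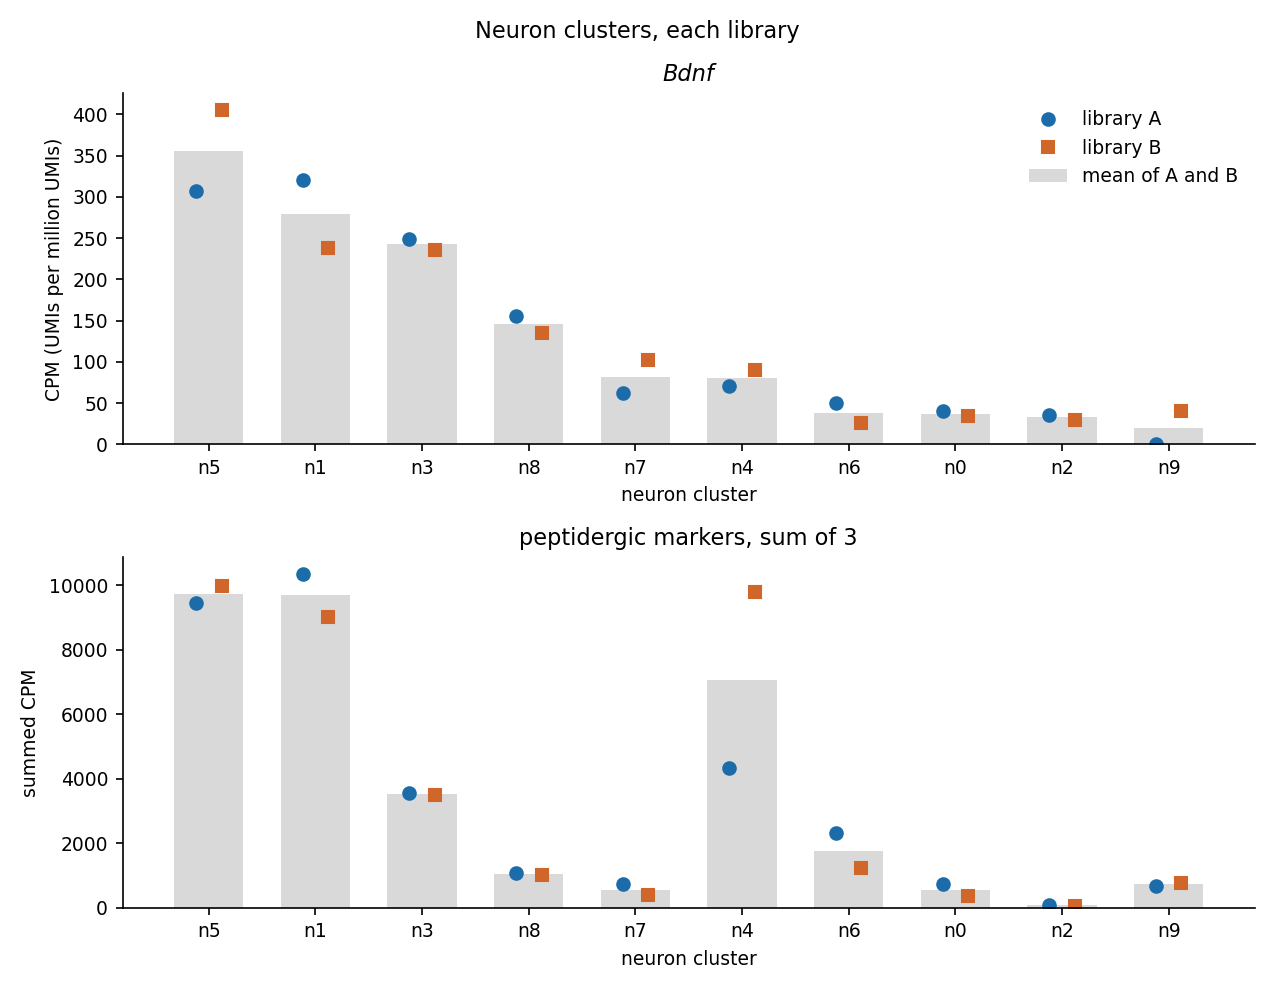
Level of Bdnf in the 10 neuron clusters in CPM, in descending order of the mean (upper panel), and the summed CPM of the peptidergic markers Calca, Tac1 and Adcyap1 in the same order (lower panel); both axes start at 0. Circles are library A, squares are library B and bars are their mean; n5 and n1 are high in both panels, and n4 is high in peptidergic markers at 70.6 and 89.8 CPM of Bdnf.

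Clusters n4, n6 and n9 are uncertain as neurons. Their cells had low UMI counts with the glial gene S100b among the 10 leading genes (n4), the macrophage markers Lyz2, C1qa, C1qb and Tyrobp among them (n6, with 2.27 CPM of summed macrophage markers in A and 1323 CPM in B), or low UMI counts with Apoe leading (n9). Without them, 640 neurons had 167 and 149 CPM of Bdnf, 4.73 and 4.01 CPM of Artn and 4.07 and 3.89 CPM of Nrtn in A and B, with 486 and 452 CPM of glial markers. Fibroblast markers did not enter the choice of n4, n6 and n9, and Dcn was among the 10 leading genes of n1. The summed fibroblast markers were 142 and 241 CPM in n1, against 180 and 231 CPM in all neurons.

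Artn was called higher in n2 (13.5 and 10.7 CPM, difference 2.42, SE 0.57, adjusted p = 0.000549 by edgeR), where 18.8% of genes were, and in n9 (15.1 and 50.4 CPM, on 6 UMIs), where 11% were. The difference in n2 was 2.30 in A alone and 1.07 in B alone. Summed glial markers were 928 and 698 CPM in n2 and 4749 and 4295 CPM in n9, and their part in these calls was not tested. Nrtn was called higher in n0 by edgeR, where 1716 of 10524 genes were called higher. Over 4 alternatives its difference there ranged from 1.16 to 1.26, and DESeq2 did not make the call (adjusted p = 0.0900). In the fit without n4, n6 and n9, Nrtn was not among the genes tested. Gdnf, with 8 neuronal UMIs, was not tested between neuron clusters.

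Pspn, which encodes persephin, another ligand of the GDNF family that was not among the 6, had 2 UMIs in all and was not tested.

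Receptors for the ligands were spread over both main classes. Of 13 receptor genes, 8 were called higher and 1 lower in glia against the other classes, and 7 higher and 3 lower in neurons, beside 36.7% and 20.5% of all genes in glia and 38.9% and 31% in neurons. Ret, the kinase shared by GDNF family ligands, stood at 383 and 395 CPM in neurons against 2.80 and 2.43 CPM in glia (difference 7.25, SE 0.09), and Gfra3, the artemin co-receptor, at 284 and 226 CPM in neurons against 30.6 and 29.0 CPM in glia (difference 3.13, SE 0.08). Ntrk2, which encodes the BDNF receptor TrkB, ran the other way, with 129.6 and 128.8 CPM in glia against 14.9 and 19.7 CPM in neurons. It was also called higher in fibroblasts against the mean of the other classes, where 24.4% of genes were. Gfra1, the GDNF co-receptor, was at 80.5 and 84.5 CPM in glia against 26.9 and 29.6 CPM in neurons (difference 1.51, SE 0.08, adjusted p = 6.38e-20, edgeR). Gfra2, the neurturin co-receptor, was at 48.7 and 46.4 CPM in glia against 11.3 and 13.1 CPM in neurons.

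Within glia, Gfra1 was high where Gdnf was high. It stood at 204 and 190.1 CPM in g1 and 140.4 and 146 CPM in g3, against 30.7 to 59.4 CPM in the other 3 clusters, and exceeded the mean of the others by 1.86 in g1 (log2, SE 0.05, adjusted p = 9.16e-43, edgeR). Ngfr, which encodes p75, showed the same order with 226 and 211 CPM in g1 and 133 and 143 CPM in g3, against 30.7 to 44.3 CPM. Ntrk2 was lower in g1, at 68.1 and 69.4 CPM, and in g3, at 66.1 and 74.3 CPM, against 121 to 188 CPM in the other 3 clusters. In g1, 4 of the 13 receptors were called higher and 5 lower, against 22.4% and 27.2% of all genes.

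Of 9 tested genes whose products cut or sort the precursor proteins, 3 were called higher and 2 lower in glia, 3 higher and 5 lower in neurons, and 5 higher and 1 lower in fibroblasts. The shares of all genes were 36.7% and 20.5% in glia, 38.9% and 31% in neurons and 24.4% and 19.1% in fibroblasts, so that the counts in glia are near the general share. The neuroendocrine convertase gene Pcsk2 stood at 67.8 and 63.3 CPM in neurons against 3.35 and 3.88 CPM in glia, and Furin, which encodes the ubiquitous convertase, at 38.5 and 40.6 CPM in glia against 12.5 and 10.5 CPM in neurons. Plat, which encodes tissue plasminogen activator, stood at 124.5 and 124.2 CPM in glia against 12.7 and 13.0 CPM in neurons. Furin and Plat were also among the 5 genes called higher in fibroblasts.

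The genes whose log2(CPM + 1) most resembled each ligand over 34 points (17 clusters or classes in each of 2 libraries, sharing cells' depth and library) were Mapk10, Gfra4 and Nrxn2 for Bdnf (Pearson r 0.954, 0.952 and 0.952), Asgr1, Atp10b and Ucn2 for Gdnf (0.911, 0.836 and 0.820), Igsf11, Zfp60 and Tfap2a for Artn (0.954, 0.888 and 0.886) and Sbf2, Cyp39a1 and Dhx9 for Nrtn (0.882, 0.874 and 0.865). These were the closest of 10277 genes and are given as a description.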

How the data were processed

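The 2 libraries of dissociated DRG cells, called A and B, were analysed as replicates of 1 condition. The authors made UMI counts with Cell Ranger 3.0.2 on mm10 and deposited them, not normalized, as 1 sparse matrix per library. No per-sample column was left unmapped (0).

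Cells with at least 200 genes and at most 10% mitochondrial UMIs entered clustering in Seurat 5.3.0, run in R 4.3.3 (2000 variable genes, 20 dimensions, resolution 0.18, and 0.3 for neurons). The ligands and the other genes of their pathway were kept out of the variable genes. Clusters were named from marker lists. Scrublet (scanpy 1.11.5) called 0 doublets in A and 4 in B, which is too few to have worked, so no doublets were removed. Counts were summed per library and class or cluster and tested with the quasi-likelihood test of edgeR 4.0.16 (TMM, filterByExpr, library as a term), with Benjamini-Hochberg adjustment over all genes tested and a threshold of 0.05. Libraries, not cells, were the replicates. A and B share a chip, and the library term pairs the groups summed from the same library. The script was tested on simulated data. Shares of cells compared between classes were taken after thinning each cell to 2000 UMIs, which left out 229 of 10730 cells. Intervals are exact binomial at 95% and cover counting error only.

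The named genes were all 6 ligands, the other genes of a pathway list (1 of them is not reported here), and for each ligand with at least 30 UMIs per library the 5 genes most correlated with it. The ligands and lists were chosen with earlier results of these data known. Alternatives were DESeq2 1.42.0, no TMM, no filter on low counts, no library term, each library alone, stricter cell filters (500 genes, 7.5% mitochondrial UMIs), removal of the top 5% of Scrublet scores, other resolutions, pathway genes not held out, and other thinning depths. Leaving out 3 neuron clusters was added after seeing the data. Positions are from GENCODE M21 and upstream windows from RefSeq.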

Additional observations from a re-analysis of the deposited data

How the results depend on the processing

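With no replicate block (no library term), no call of a ligand by class or cluster changed, and the values were 6.20 for Bdnf in neurons against glia, 3.39 for Gdnf, 2.86 for Artn and 2.94 for Nrtn in glia against neurons, 2.61 for Gdnf in g1 and 2.21 for Bdnf in n5 (log2). Over 9 alternatives to the tests by class, Bdnf in neurons against glia ranged over 6.10 to 6.42, and in glia against neurons Gdnf ranged over 3.15 to 3.46, Artn over 2.60 to 2.95 and Nrtn over 2.68 to 3.04, each called throughout. Without TMM the median of all genes moved from 0.17 to 0.32 in glia, and no direction of a ligand by class turned. The higher Artn in the glial cluster with most repair markers was lost in 6 of 9 alternatives: 0.28 with DESeq2 (adjusted p = 0.125), 0.16 with at least 500 genes (0.157), 0.14 with at most 7.5% mitochondrial UMIs (0.213), 0.10 without the top Scrublet scores (0.392), 0.21 at another resolution (0.0653) and 0.16 with pathway genes not held out (0.148), and the cause was not tested. At 7.5% mitochondrial UMIs neurons held 92.9% of Bdnf UMIs. Shares of cells follow depth: thinned to 1000 UMIs and unthinned, they were 10.1% and 63.3% for Bdnf in neurons, and 0.486% and 2.12% for Gdnf, 3.29% and 16.4% for Artn and 3.12% and 14.6% for Nrtn in glia. Without the 3 uncertain neuron clusters, Bdnf was called lower in n7 (-0.71, adjusted p = 0.00160) and Artn higher in n0 (1.33, adjusted p = 0.0218). DESeq2 did not call Nrtn in n0 (adjusted p = 0.0900).

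In each library alone, which leaves no test, Bdnf was 5.98 to 6.33 in neurons against glia, 2.77 to 3.11 in neurons against fibroblasts and 3.21 to 3.22 in fibroblasts against glia. Gdnf was 3.21 to 3.37 in glia against neurons and 1.76 to 4.49 against fibroblasts, Artn 2.84 to 2.93 and 3.48 to 3.72, and Nrtn 2.88 to 3.05 and 2.73 to 5.64. In g1 Gdnf was 2.52 to 2.70, Artn 0.17 to 0.29 and Nrtn -0.28 to 0.0748, and Bdnf in n5 was 2.17 to 2.40. The leading class held 92.1% to 95.4% of Bdnf, 94.4% to 96.8% of Gdnf, 93.6% to 94.8% of Artn and 94.0% to 94.5% of Nrtn UMIs, and thinned shares of cells were 19.95% to 22.4%, 0.779% to 0.919%, 6.96% to 7.10% and 5.86% to 6.39%. Called values by cluster that moved by over 1.5 times were Gdnf in g0 (-0.27 in A alone, -1.75 in B alone) and in g4 (-0.84 to -1.68), Bdnf in g2 (-2.04 and -0.67) and Nrtn in n0 (0.57 and 1.16), besides those given with their results. The comparisons of Gdnf and Nrtn with fibroblasts rest on 2 and 12 fibroblast UMIs.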
